A study of Homo sapiens with 15 samples.

Results

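The genes described here are the 412 that the authors' deposited tables list both for siSRC4, the second of 2 SRC siRNAs by sample name, and for PD30 cells, each set against the same PD45 control. They were chosen by identifier, as the genes present in both tables, out of 4872 distinct genes in the 4 deposited tables of the series. There are 1280 genes in the siSRC4 table and 2845 genes in the PD30 table. All cells were WI-38, an established line of human fetal lung fibroblasts that stops dividing after a limited number of divisions. Each group had 3 RNA sequencing libraries. The siSRC4 cells were at PD45 and carried DMSO, the transfection reagent lipo3000 and an siRNA against SRC. The PD30 cells carried DMSO and lipo3000 with no siRNA. The control cells were at PD45 and carried DMSO and lipo3000 with NC, read as a negative-control siRNA. DMSO, the reagent and the line were thus common to all 3 groups, and the labels give PD as a number of cell generations (30 and 45). Neither the siSRC4 nor the PD30 cells carried NC. For a gene that differed from the control in both groups, the effect of passage or knockdown and the absence of NC cannot be told apart.

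SRC encodes a non-receptor tyrosine kinase that relays signals from growth factor receptors and integrins to cell adhesion, movement and division. Fibroblasts that near the end of their replicative lifespan leave the cell cycle, lower the transcripts of mitosis and DNA replication, and change the proteins they secrete, among them protease inhibitors, cytokines and matrix components. The study's design describes the PD45 cells as senescent and asks what lowering SRC does to them. The question here was gene by gene whether siSRC4 cells at PD45 stood nearer to PD30 cells or farther from them than the control did.

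SRC itself was lower with siSRC4. Its normalized signal was 9.51, 11.1 and 11.8 in siSRC4 libraries, against 18.95, 20.5 and 19.9 in control libraries. No siSRC4 library reached a control library, and the siSRC4 mean of 10.8 ± 1.16 was 54.6% of the control mean of 19.8 ± 0.766 (SD, n = 3 each). The two-sided exact permutation p was 0.1, which is the smallest that 3 against 3 libraries can give. SRC is not in the PD30 table, so its PD30 level was not analysed here.

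Of the 412 genes, 250 lay on the same side of the control in both groups and 162 on opposite sides. Both groups were higher in 108 genes, and both were lower in 142. In 92 genes siSRC4 cells were higher and PD30 cells lower than the control, and in 70 genes siSRC4 cells were lower and PD30 cells higher. By annotation 387 of the 412 were protein coding, 11 were long intergenic RNAs and 4 were antisense genes. These directions come from the rule itself, since a gene had to pass an adjusted p of 0.05 and 1.5-fold against the control to be in a table. Both tables use the same control libraries, whose spread moves both groups to the same side, and its part in the counts was not tested. The authors' tables listed 8.77% of the genes tested for siSRC4 and 15.3% of those tested for PD30, as far as the tested number can be worked out from their p-values. The genes nearest to the limits were ZNF747 for siSRC4 (authors' log2 fold change 0.59) and ITGA1 for PD30 (-0.59), and GPR63 (adjusted p 0.0498 for siSRC4) and TMEM91 (adjusted p 0.04997 for PD30) in the authors' deposited table. Genes outside a limit are not in the tables and were not analysed here.

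Levels are the deposited normalized signals, whose unit (TPM or FPKM) is not stated, so that depth is unknown and no level is compared between genes. The siSRC4 and PD30 libraries were compared directly with limma on log2(signal + 1), for the 374 genes whose signal averaged 1 or more over the 9 libraries. P-values were adjusted over those 374 (Benjamini-Hochberg), the genes that have values in both groups and pass that minimum. Whether the 3 libraries of a group were separate cultures is not in the labels, and these p-values measure only the spread between libraries, which may be technical. The other 38 genes were of low signal and are given as values only: 11 were higher in both groups, 12 lower in both, 8 higher with siSRC4 and lower in PD30, and 7 lower with siSRC4 and higher in PD30. A table lists only genes that changed against the control, so counts of listed markers show change and cannot check cell identity. Of 12 fibroblast markers, the PD30 table lists 4, 3 higher and 1 lower, and the siSRC4 table lists 0. VIM was at 5407 ± 219 in PD30 cells and 3225 ± 104 in control cells, and S100A4, the lower one, was at 94.2 ± 10.8 in PD30 cells and 448 ± 27.3 in control cells. Epithelial markers were listed in 2 of 16 cases for siSRC4 (KRT17 and MUC1, both higher) and in 6 of 16 for PD30 (1 higher, 5 lower). Endothelial markers were listed in 0 of 10 and 2 of 10, and immune markers in 0 of 14 and 1 of 14. The summed signal of the listed epithelial markers was 18.0 to 26.04 in siSRC4 libraries against 8.91 to 13.9 in control libraries for the same genes, and 63.2 to 70.7 in PD30 libraries against 222 to 247 in control libraries. The part of these markers in the results was not tested.

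**Figure D1:**
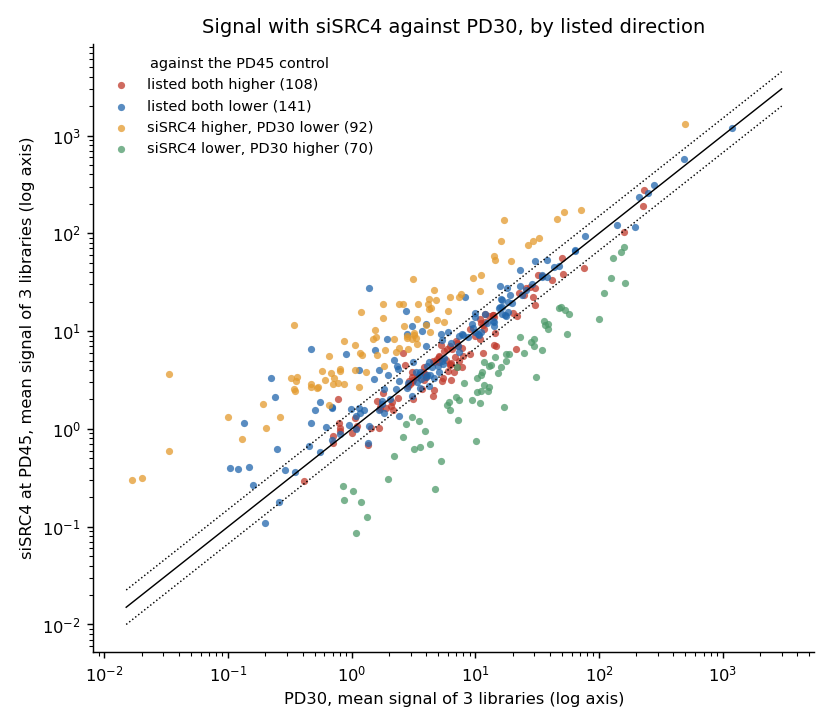
Mean normalized signal of each gene in siSRC4 cells plotted against PD30 cells on log axes, 1 point per gene, coloured by the side of the control on which each group lay (1 gene with a PD30 mean of 0 is left out). Genes higher or lower in both groups gather along the diagonal, and the 92 and 70 genes with opposite directions lie on either side of it.

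In the direct comparison 226 of 374 genes differed between siSRC4 and PD30 cells at an adjusted p of 0.05 (60.4%), 131 higher with siSRC4 (35.0%) and 95 lower (25.4%). All 84 and 63 tested genes with opposite directions are among them, which follows from their choice, and their p-values are not read. Among the 227 tested genes on the same side of the control, 79 differed (34.8%) and 148 did not pass. Adjustment ran over all 374 genes, so the genes with opposite directions made the threshold more lenient than over these 227 alone. Of those 148, the 95% interval of the difference lay within 1.5-fold for 113 genes and was wider for 35. Since 1.5-fold is also the tables' limit against the control, that width is close to the whole gap for genes near the limit. A total of 71 genes fell short of PD30, 27 of those higher and 44 of those lower than the control in both groups, and 8 lay beyond PD30. These genes also passed limits set on the same libraries in both tables, so the calls and this split describe chosen genes. By library values alone, all siSRC4 libraries lay above or below all PD30 libraries for 257 of the 412 genes (62.4%) and for 95 of the 250 on the same side (38.0%).

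The share of the gap covered is the siSRC4 minus control difference divided by the PD30 minus control difference, both as log2(mean signal + 1). At 100% siSRC4 cells stand at the PD30 level, at 0% they stand at the control level, and a negative share is a gap widened. The median share was 90.0% (quartiles 57.2% and 114%) for the 97 genes higher in both groups. It was 85.9% (quartiles 59.1% and 109.8%) for the 130 genes lower in both. Over all 227 genes on the same side, 83 had a share of 100% or more, 102 lay between 50% and 100%, and 42 were under 50%. The gap was widened by a median of 93.1% (quartiles 64.0% and 136%) for the 84 tested genes higher with siSRC4 and lower in PD30. It was widened by a median of 75.2% (quartiles 47.7% and 112%) for the 63 genes lower with siSRC4 and higher in PD30, and 37 and 19 genes of these classes were widened by more than the whole gap. Each table's 1.5-fold limit sets a floor under both differences, so these shares are descriptions of chosen genes. The same control libraries also enter both differences and both limits, so spread in the control moves both differences the same way. Its part in the shares was not tested. Libraries differed: the median share of the genes lower in both groups was 63.8%, 84.3% and 96.0% in siSRC4 libraries 1, 2 and 3, while for genes higher in both it was 85.7%, 85.7% and 74.4%.

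**Figure D2:**
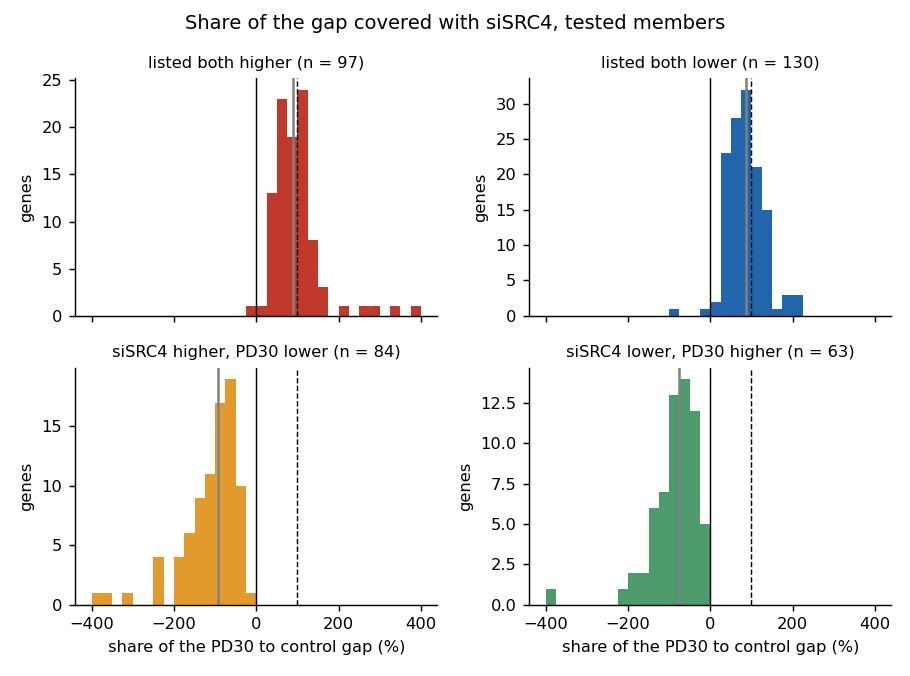
Number of tested genes by share of the gap between PD30 and PD45 control cells that siSRC4 cells covered, in percent, with a panel for each direction class. The dashed line marks 100% (the PD30 level), the grey line marks the class median, and 2 genes with shares below -400% are drawn at the edge; genes on the same side of the control centre near 90.0% and 85.9%, and the other classes lie below 0.

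Among the genes lower in both groups, CALM2 and HSP90AA1 did not differ between siSRC4 and PD30 cells past the threshold. CALM2, 1 of several genes for the calcium sensor calmodulin, had a signal of 1431, 1161 and 1029 in siSRC4 libraries and 1087, 1271 and 1232 in PD30 libraries, against 1968, 1960 and 2108 in control libraries. The siSRC4 and PD30 libraries overlapped, and all lay below the control. The log2 difference of siSRC4 minus PD30 was 0.00 ± 0.13 (SE; 95% interval -0.29 to 0.29), and the share of the gap was 98.3% ± 32.1 (SD over the siSRC4 libraries). HSP90AA1, the stress-inducible cytosolic HSP90 chaperone, had 427, 304 and 206 in siSRC4 libraries and 244, 303 and 294 in PD30 libraries, against 556, 520.3 and 485 in control libraries. Its siSRC4 libraries spread on both sides of the PD30 range. The difference was 0.10 ± 0.21 on the log2 scale with an interval of -0.36 to 0.57. This interval was wider than that of CALM2 and close to 1.5-fold at its upper end, and the share was 82.4% ± 58.8.

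Secreted and surface proteins were also among the genes that did not differ from PD30 past the threshold. WNT16, a secreted WNT ligand linked to replicative senescence in fibroblasts, had 17.4, 14.6 and 14.6 in siSRC4 libraries and 17.7, 18.9 and 18.8 in PD30 libraries, against 49.0, 43.7 and 39.01 in control libraries. All siSRC4 libraries lay below all PD30 libraries, yet the difference of -0.24 ± 0.11 on the log2 scale did not pass (limma adjusted p = 0.0864). It passed when values were scaled to the authors' fold changes (adjusted p = 0.0412) and without siSRC4 library 1 (-0.32, adjusted p = 0.0316). OLR1, a scavenger receptor for oxidized low-density lipoprotein, had a mean of 12.6 ± 2.68 in siSRC4 cells and 13.9 ± 0.566 in PD30 cells, against 35.0 ± 2.02 in control cells. IL7R, the receptor chain for interleukin-7 and the JAK-STAT list's single gene, had 17.2 ± 2.90 with siSRC4 and 15.5 ± 1.91 in PD30, against 37.6 ± 3.86 in the control. For neither did siSRC4 and PD30 differ past the threshold, with intervals of -0.47 to 0.16 for OLR1 and -0.17 to 0.45 for IL7R. Without siSRC4 library 3 the OLR1 difference was -0.31, against -0.15 with all libraries, and passed (limma adjusted p = 0.0243).

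Collagen genes were listed in 3 of 49 cases, all on the same side of the control in both groups. Of these 1 differed between siSRC4 and PD30, against 34.8% of all 227 tested genes on the same side. PLOD2, a lysyl hydroxylase that modifies collagen for cross-linking, had 48.6, 47.1 and 39.3 in siSRC4 libraries and 40.1, 43.7 and 46.5 in PD30 libraries, against 73.1, 75.2 and 64.6 in control libraries. COL4A1, a chain of basement membrane collagen, was higher than the control in both groups, with 184, 199 and 191 in siSRC4 libraries and 238, 204 and 239.6 in PD30 libraries, against 135, 113 and 96.4 in control libraries. Its siSRC4 libraries all lay below its PD30 libraries and the difference of -0.24 ± 0.10 missed the threshold narrowly (limma adjusted p = 0.0518). It passed when values were scaled to the authors' fold changes (adjusted p = 0.0208) and without PD30 library 2 (adjusted p = 0.0162). P4HA3, a subunit of collagen prolyl 4-hydroxylase, was short of PD30, with 4.31 ± 0.820 in siSRC4 cells and 7.86 ± 0.490 in PD30 cells, against 1.81 ± 0.184 in control cells (log2 difference -0.75 ± 0.15, limma adjusted p = 9.07e-04).

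Other genes that did not differ from PD30 past the threshold came from mixed functions. At a mean signal of at least 5, the smallest differences beside CALM2 were those of PCDHGA11, a gamma-protocadherin (11.5 ± 1.81 with siSRC4 and 11.5 ± 1.998 in PD30, against 6.92 ± 0.745 in the control), and BLOC1S2, a subunit of a complex for lysosome-related organelles (26.2 ± 6.32 with siSRC4 and 25.5 ± 1.11 in PD30, against 36.7 ± 1.43 in the control). GPR162, an orphan receptor, followed with 6.48 ± 0.415 with siSRC4 and 6.43 ± 1.04 in PD30, against 4.26 ± 1.08 in the control. Among genes higher in both groups with a mean signal of at least 5, those with the largest authors' fold change for siSRC4 included C1QTNF6, a secreted C1q and tumour necrosis factor related protein (7.97 ± 0.887 with siSRC4 and 7.02 ± 1.07 in PD30, against 3.08 ± 0.495 in the control), and STMN3, a microtubule-destabilizing stathmin (27.9 ± 2.51 with siSRC4 and 25.8 ± 1.45 in PD30, against 12.3 ± 0.871 in the control). Neither passed the direct test, with intervals of -0.15 to 0.48 and -0.13 to 0.34 on the log2 scale. The 5 zinc finger genes with a ZNF symbol, 3 higher and 2 lower than the control in both groups, all missed the threshold as well. So did 148 of all 227 tested genes on the same side of the control. Without siSRC4 library 3, ZNF616 passed (log2 difference 0.46, against 0.21 with all libraries, limma adjusted p = 0.00948), as did ZNF747 (-0.37, against -0.23, limma adjusted p = 0.0458).

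**Figure D3:**
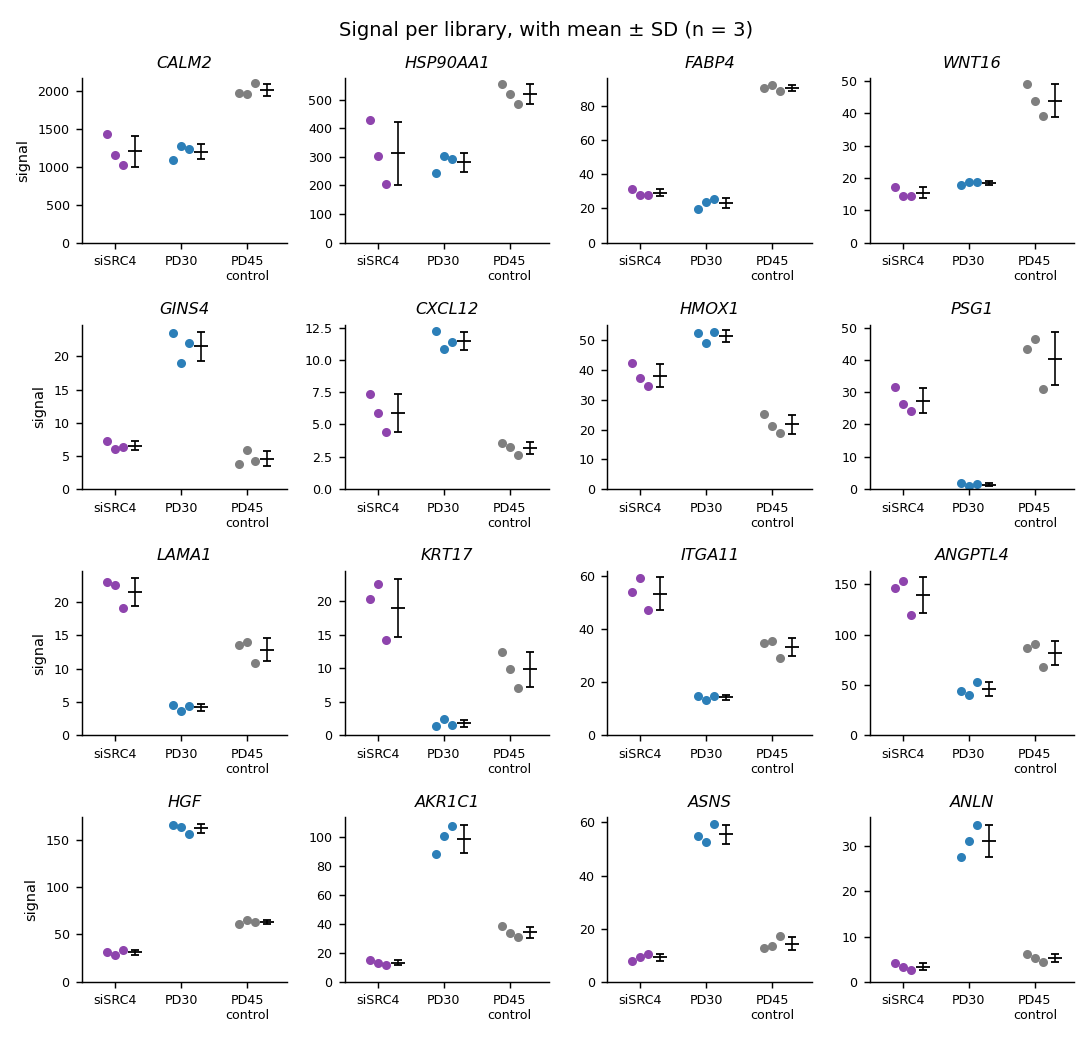
Normalized signal of selected genes by library, with siSRC4 left of PD30 and the PD45 control at the right. Points are libraries, and black marks give mean ± SD (n = 3); CALM2 and genes like it show siSRC4 and PD30 together and apart from the control, while genes such as KRT17 and HGF show siSRC4 and PD30 on opposite sides of it.

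A second set lay on the PD30 side of the control but not as far from it as PD30. GINS4, a subunit of the GINS complex of the replicative helicase, had 7.24, 5.99 and 6.41 in siSRC4 libraries and 23.5, 19.0 and 21.95 in PD30 libraries, against 3.71, 5.86 and 4.16 in control libraries. Every siSRC4 library lay above every control library and far below every PD30 library. The share of the gap was 21.7% ± 5.98, and the difference from PD30 was -1.57 ± 0.13 on the log2 scale (limma adjusted p = 5.80e-07). It was the single member among 64 genes of the list for DNA replication and nucleotide supply. HAUS4, a subunit of the augmin complex of the mitotic spindle, had 7.21 ± 0.711 in siSRC4 cells and 14.2 ± 1.13 in PD30 cells, against 4.43 ± 1.24 in control cells. FGFR4, a fibroblast growth factor receptor, had 6.98 ± 0.691 with siSRC4 and 14.6 ± 2.55 in PD30, against 4.31 ± 1.19 in the control. Their shares were 40.1% ± 8.41 and 37.7% ± 8.08.

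CXCL12, a chemokine of stromal cells, had 7.39, 5.89 and 4.45 in siSRC4 libraries and 12.2, 10.9 and 11.4 in PD30 libraries, against 3.58, 3.23 and 2.67 in control libraries. All libraries of the 3 groups were separate, and the share was 46.1% ± 19.6 (log2 difference from PD30 -0.88 ± 0.16, limma adjusted p = 4.80e-04). HMOX1 and TRIB3 also stood between the groups, unlike other genes of their lists described further on. HMOX1, heme oxygenase and a target of the oxidative stress factor NRF2, had 42.3, 37.4 and 34.7 in siSRC4 libraries and 52.6, 49.2 and 52.8 in PD30 libraries, against 25.3, 21.2 and 18.9 in control libraries. TRIB3, a pseudokinase induced by amino acid and endoplasmic reticulum stress, had 15.15, 13.9 and 14.2 in siSRC4 libraries and 20.9, 22.15 and 21.4 in PD30 libraries, against 10.15, 7.89 and 9.77 in control libraries. For both genes siSRC4 lay above every control library and below every PD30 library, with shares of 64.8% ± 11.6 and 51.9% ± 5.27. TMEM119, a membrane protein known from bone-forming cells and microglia, stood closer to PD30 at 33.5 ± 2.999 with siSRC4 and 41.5 ± 1.10 in PD30, against 13.9 ± 0.968 in the control. Its difference of -0.30 ± 0.10 (limma adjusted p = 0.0220) was lost without PD30 library 1 (adjusted p = 0.0751) or library 3 (adjusted p = 0.0716).

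Among genes lower in both groups, the widest distances from PD30 belonged to genes with a low signal in PD30 cells. PSG1, a pregnancy-specific glycoprotein of the placenta, had 31.7, 26.2 and 24.2 in siSRC4 libraries and 1.85, 0.880 and 1.43 in PD30 libraries, against 43.4, 46.5 and 31.0 in control libraries. Its siSRC4 libraries were lower than the control's but for 1 overlap, and the share was 13.2% ± 4.67 (log2 difference from PD30 3.58 ± 0.17, limma adjusted p = 2.15e-08). LCE2A and LCE2C, late cornified envelope proteins of skin, had 6.52 ± 1.29 and 3.32 ± 1.47 in siSRC4 cells, 0.470 ± 0.304 and 0.223 ± 0.145 in PD30 cells, and 14.3 ± 5.03 and 12.7 ± 2.65 in control cells. Both genes and PSG1 have near-identical relatives, so their signals are uncertain as to the gene of origin. SEMA6A, a transmembrane semaphorin, had 8.27, 8.14 and 8.73 in siSRC4 libraries and 1.62, 1.45 and 2.75 in PD30 libraries, against 16.5, 12.1 and 10.2 in control libraries (share 25.4% ± 2.11).

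The list for fatty acid binding and lipid handling had 6 of its 30 genes here, and all 6 were higher in siSRC4 than in PD30 cells at the threshold. The median log2 difference was 1.65, against 0.07 over all 374 genes tested, of which 35.0% were higher. FABP3, a fatty acid binding protein of muscle, had 13.8, 9.48 and 10.5 in siSRC4 libraries and 2.45, 2.68 and 4.02 in PD30 libraries, against 25.7, 24.8 and 17.3 in control libraries. FABP4, the fatty acid binding protein of fat cells and macrophages, had 31.6, 28.1 and 27.9 with siSRC4 and 19.9, 23.6 and 25.6 in PD30, against 90.5, 92.5 and 88.9 in the control. FABP3 stood at 37.2% ± 10.1 of the gap and FABP4 at 82.9% ± 5.13. The FABP4 difference from PD30 (0.34 ± 0.12, limma adjusted p = 0.0275) did not pass when values were scaled to the authors' fold changes (adjusted p = 0.0570), nor without siSRC4 library 1 (adjusted p = 0.0768), PD30 library 1 (adjusted p = 0.137) or PD30 library 2 (adjusted p = 0.0545). CD36, a receptor for long-chain fatty acids, had 5.83 ± 1.01 in siSRC4 cells and 0.900 ± 0.190 in PD30 cells, against 7.83 ± 1.37 in control cells. The remaining 3, ANGPTL4, LIPG and PLA2G4C, were higher with siSRC4 and lower in PD30 than in the control, so their place is fixed by their choice.

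Of the immediate-early and growth factor response list, 3 of 46 genes were present. DUSP6 and ATF3 were lower than the control in both groups, and NR4A2, a nuclear receptor, was higher in both (3.36 ± 1.20 with siSRC4 and 4.02 ± 0.123 in PD30, against 1.95 ± 0.313 in the control) and did not pass the direct test. Without siSRC4 library 1 its log2 difference was -0.45, against -0.24 with all libraries, and passed (limma adjusted p = 0.0319). DUSP6, a phosphatase that acts on ERK kinases and is itself induced by their signal, had 30.4, 27.0 and 25.4 in siSRC4 libraries and 17.0, 17.1 and 20.04 in PD30 libraries, against 46.1, 38.1 and 38.2 in control libraries. The 3 groups did not overlap, and the share was 48.3% ± 11.2 (log2 difference from PD30 0.59 ± 0.11, limma adjusted p = 7.66e-04). CCND1, cyclin D1, had 579, 564 and 592 in siSRC4 libraries and 516, 461 and 491 in PD30 libraries, against 1080.2, 919 and 949 in control libraries. It stood at 76.1% ± 3.49 of the gap, with a difference of 0.24 ± 0.09 (limma adjusted p = 0.0430). ATF3, a stress-induced transcription factor, had 14.3 ± 1.21 with siSRC4 and 17.8 ± 2.17 in PD30, against 27.3 ± 2.56 in the control (adjusted p = 0.0647), and its difference of -0.29 ± 0.12 passed when values were scaled to the authors' fold changes (adjusted p = 0.0329), without siSRC4 library 1 (0.0460) and without PD30 library 1 (0.0328).

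The 8 genes beyond PD30 were 3 higher and 5 lower than the control. SLC37A2, a sugar phosphate transporter, had 7.26, 5.84 and 4.96 in siSRC4 libraries and 2.79, 2.25 and 2.72 in PD30 libraries, against 2, 1.47 and 1.57 in control libraries (log2 difference from PD30 0.96 ± 0.16, limma adjusted p = 2.13e-04). GANAB, the catalytic subunit of glucosidase II in glycoprotein folding, had 263, 293 and 279.7 with siSRC4 and 243, 219.9 and 229 in PD30, against 132, 130.1 and 153 in the control (difference 0.27 ± 0.09, limma adjusted p = 0.0249). In both genes every siSRC4 library lay above every PD30 library. KIAA1217, at 7.19 ± 0.250 with siSRC4 and 5.32 ± 0.260 in PD30, against 2.77 ± 0.295 in the control (limma adjusted p = 0.0215), lost its call without siSRC4 library 2 (0.0777), PD30 library 2 (0.0906) or PD30 library 3 (0.0532). The 5 lower genes were PLPPR4, PREPL, LINC01913, LINC00513 and the unnamed ENSG00000286190, whose signal was 93.8, 119 and 139.5 in siSRC4 libraries and 180.3, 214 and 195 in PD30 libraries, against 267, 306 and 349 in control libraries. The count of 8 was 18 without siSRC4 library 1, and 5 without PD30 library 2 or 3.

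Genes higher with siSRC4 and lower in PD30 included several secreted and adhesion proteins. HBEGF, a ligand of the epidermal growth factor receptor, had 18.8 ± 0.806 with siSRC4 and 4.10 ± 0.142 in PD30, against 11.5 ± 0.405 in the control. IL32, a cytokine, had 58.5 ± 4.25 with siSRC4 and 14.03 ± 3.39 in PD30, against 31.0 ± 3.28 in the control. The sides on which both lie were fixed by their choice.

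Matrix and integrin genes in this class had a similar order. LAMA1, a laminin chain of basement membranes, had 22.9, 22.5 and 19.1 in siSRC4 libraries and 4.60, 3.67 and 4.34 in PD30 libraries, against 13.5, 14.1 and 10.9 in control libraries. ITGA11, a collagen-binding integrin chain of fibroblasts, had 53.8, 59.2 and 47.0 with siSRC4 and 14.8, 13.4 and 14.8 in PD30, against 34.7, 35.3 and 29.2 in the control. ITGB3, an integrin chain of vitronectin receptors, had 23.7 ± 2.51 with siSRC4 and 7.61 ± 0.290 in PD30, against 14.9 ± 0.841 in the control. In each of these 3 genes the groups did not overlap, and the gap was widened by 49.9% ± 9.79, 58.4% ± 14.2 and 72.4% ± 17.2. The integrin, cadherin and protocadherin list had 6 of 44 genes here. In siSRC4 against PD30 cells 3 were higher, 1 lower and 2 past neither side. Their median log2 difference was 0.35 against 0.07 over all genes tested, of which 35.0% were higher and 25.4% lower. The order of ITGA11, ITGB3 and PCDH18 follows from their class, which leaves ITGA8, an integrin chain lower than the control in both groups, as the other call (4.39 ± 0.463 with siSRC4 and 2.34 ± 0.0321 in PD30, against 11.03 ± 2.19 in the control). MMP15 and ADAMTSL1, a membrane-bound matrix metalloproteinase and a secreted ADAMTS-like protein, had 8.73 ± 1.003 and 9.90 ± 1.63 in siSRC4 cells, 1.57 ± 0.0624 and 4.26 ± 0.797 in PD30 cells, and 3.82 ± 0.433 and 6.05 ± 0.681 in control cells.

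ANGPTL4, a secreted inhibitor of lipoprotein lipase, had 146, 153 and 119 in siSRC4 libraries and 44.3, 39.9 and 53.3 in PD30 libraries, against 86.4, 90.8 and 68.3 in control libraries. LIPG, endothelial lipase, had 3.29 ± 0.846 with siSRC4 and 0.320 ± 0.242 in PD30, against 1.75 ± 0.592 in the control. PLA2G4C, a cytosolic phospholipase A2, had 16.7, 16.5 and 17.7 with siSRC4 and 5.55, 3.93 and 3.15 in PD30, against 4.38, 6.61 and 6.39 in the control. Here siSRC4 cells stood apart from both other groups, whose libraries overlapped, and the gap was widened by 366% ± 12.7. This SD is over the siSRC4 libraries only. It leaves out the spread of PD30 and control, so with those overlapping the percentage is less certain than it looks. LRRC32, a cell-surface carrier of latent TGF-beta, also had siSRC4 cells far from both other groups, at 13.3 ± 1.25 with siSRC4 and 3.36 ± 0.851 in PD30, against 4.77 ± 0.497 in the control. PKIB, an inhibitor of protein kinase A, and FOLR3, a secreted folate receptor, had 19.0 ± 8.13 and 15.7 ± 1.41 in siSRC4 cells, 2.43 ± 0.403 and 1.19 ± 0.350 in PD30 cells, and 6.83 ± 1.17 and 6.61 ± 0.182 in control cells.

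Keratin genes and the homeobox gene HOXB5 belonged to this class as well. KRT17, a keratin of basal epithelial and stressed skin cells, had 20.25, 22.6 and 14.2 in siSRC4 libraries and 1.4, 2.39 and 1.59 in PD30 libraries, against 12.4, 9.93 and 7.09 in control libraries. KRTAP2-3, a keratin-associated protein with near-identical relatives, had 138 ± 13.5 with siSRC4 and 16.9 ± 1.84 in PD30, against 80.1 ± 8.88 in the control. HOXB5 had 83.8, 84.2 and 85.05 with siSRC4 and 29.1, 25.55 and 33.9 in PD30, against 48.3, 47.7 and 39.2 in the control. Its gap was widened by 150% ± 1.78, an SD that leaves out the spread of PD30 and control. The keratin and cornified envelope list had 5 genes, of which 4 were higher in siSRC4 than in PD30 cells and KRTAP1-5 (30.5 ± 8.33 with siSRC4 and 28.8 ± 2.37 in PD30, against 70.1 ± 2.995 in the control) did not pass, with a median log2 difference of 2.36 against 0.07 over all genes tested. For KRT17 and KRTAP2-3 the order against PD30 follows from their class, and 35.0% of all genes tested were higher. HSPB8, a small heat shock protein, had 76.0 ± 2.73 with siSRC4 and 26.5 ± 0.369 in PD30, against 45.7 ± 3.97 in the control. Of the p53 list, TNFRSF10C, a decoy receptor for TRAIL, and ACER2, an alkaline ceramidase, were on opposite sides of the control, with 8.29 ± 0.877 and 3.10 ± 0.588 in siSRC4 cells, 2.21 ± 0.372 and 0.357 ± 0.0306 in PD30 cells, and 4.57 ± 1.001 and 1.66 ± 0.325 in control cells. TP53INP1 (8.90 ± 1.0003 with siSRC4 and 7.40 ± 0.318 in PD30, against 13.3 ± 2.19 in the control) and KITLG (12.03 ± 2.61 with siSRC4 and 12.5 ± 0.501 in PD30, against 19.9 ± 0.709 in the control) did not pass the direct test, but TP53INP1 passed without siSRC4 library 3 (0.31, limma adjusted p = 0.0440).

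**Figure D4:**
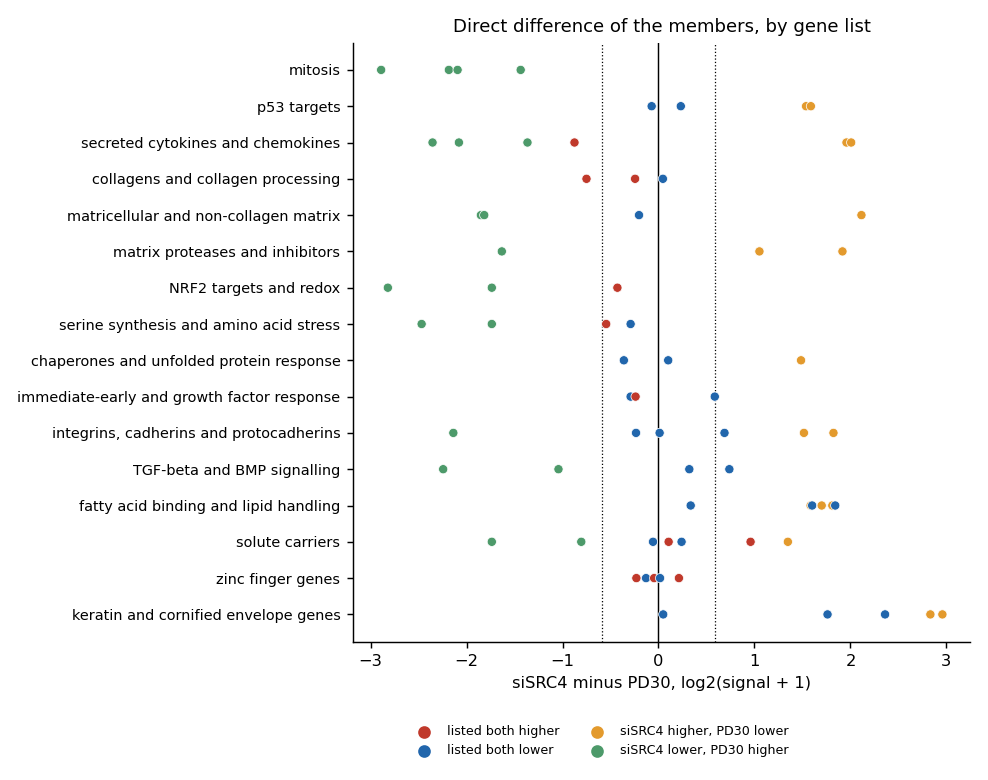
Log2 difference of siSRC4 minus PD30 signal for the genes of each list, 1 point per gene, with dotted lines at 1.5-fold. All 6 lipid handling genes lie to the positive side and all 4 mitosis genes to the negative side. For 3 of the 6 and for all 4 this follows from their class.

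Genes lower with siSRC4 and higher in PD30 included all 4 mitosis genes present, out of 58 on the list. Their median log2 difference was -2.14, against -1.58 over the 63 tested genes of this class and 0.07 over all genes tested. That all 4 lie below PD30 follows from their class. AURKA, the kinase Aurora A of the spindle poles, had 17.5, 16.4 and 19.1 in siSRC4 libraries and 48.3, 47.1 and 53.3 in PD30 libraries, against 32.4, 29.1 and 30.2 in control libraries. ANLN, anillin of the cytokinetic ring, had 4.05, 3.34 and 2.70 with siSRC4 and 27.7, 31.1 and 34.8 in PD30, against 6.16, 5.2 and 4.34 in the control. Every siSRC4 library lay below every control library for both genes. NCAPG, a condensin subunit, had 0.473 ± 0.170 with siSRC4 and 5.28 ± 0.599 in PD30, against 0.950 ± 0.234 in the control, and TTK, the spindle checkpoint kinase MPS1, had 0.243 ± 0.0551 with siSRC4 and 4.69 ± 0.830 in PD30, against 0.727 ± 0.299 in the control. CCNA2, cyclin A2, had 1.93, 1.66 and 1.49 in siSRC4 libraries and 15.4, 17.7 and 18.1 in PD30 libraries, against 2.96, 2.58 and 2.21 in control libraries. The gap was widened by 111% ± 15.3 for AURKA, 21.7% ± 9.47 for ANLN, 24.0% ± 9.88 for NCAPG, 27.6% ± 3.76 for TTK and 17.7% ± 5.06 for CCNA2. Fewer dividing cells and less RNA of these genes per cell cannot be told apart in bulk libraries.

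The promoters of ANLN and NCAPG are shown because cell cycle genes are known to carry a short element, the cell cycle genes homology region (TTTGAA), near their start. These are the 250 bases before the start from RefSeq, build GRCh38.p14, read 5′ to 3′ on the gene's strand, with matches on either strand in capitals. ANLN lies at chr7:36389612-36389861 on the plus strand, where 2 matches on opposite strands adjoin at -26 and -20. NCAPG lies at chr4:17810729-17810978 on the plus strand, with a match at -35.
ANLN: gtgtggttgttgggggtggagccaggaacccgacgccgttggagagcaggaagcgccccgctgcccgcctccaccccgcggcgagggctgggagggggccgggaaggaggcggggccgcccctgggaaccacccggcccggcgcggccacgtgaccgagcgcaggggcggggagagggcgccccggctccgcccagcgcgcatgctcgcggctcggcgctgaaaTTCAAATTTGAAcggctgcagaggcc
NCAPG: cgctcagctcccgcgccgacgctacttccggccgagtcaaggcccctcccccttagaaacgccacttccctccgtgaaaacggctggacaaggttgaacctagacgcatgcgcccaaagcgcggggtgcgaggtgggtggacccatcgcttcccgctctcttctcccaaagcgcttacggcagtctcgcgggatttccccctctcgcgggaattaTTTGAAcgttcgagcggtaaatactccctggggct
These letters occur in 13.3% of all 35116 promoters of the table, and 294 of the 412 genes had an entry there. Each of the 294 was counted by its first entry, while the share over all promoters counts every entry. Median promoter GC content was 64.2% for the 294 and 58% over all promoters, and its part in the matches was not tested. The match was in 9 of 52 promoters of genes lower with siSRC4 and higher in PD30 (17.3%), 5 of 64 of genes higher with siSRC4 and lower in PD30 (7.81%), 2 of 73 of genes higher in both (2.74%) and 11 of 105 of genes lower in both (10.5%). A match of letters is a description and not a bound site.

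Genes of amino acid supply and redox defence were in the same class. ASNS, asparagine synthetase, had 7.90, 9.47 and 10.4 in siSRC4 libraries and 54.7, 52.5 and 59.3 in PD30 libraries, against 12.6, 13.3 and 17.3 in control libraries. SLC7A11, the cystine importer, had 10.3, 8.51 and 6.29 with siSRC4 and 29.85, 32.1 and 27.3 in PD30, against 20.1, 16.9 and 14.8 in the control. The siSRC4 libraries lay below every control library for both, and the gap was widened by 31.2% ± 9.67 and 128% ± 42.3. Of the list for serine synthesis and amino acid stress, 4 of 49 genes were present (ASNS, SLC7A11, TRIB3 and ATF3), 3 of them lower in siSRC4 than in PD30 at the threshold, with a median log2 difference of -1.14. For ASNS and SLC7A11 this follows from their class, and 25.4% of all genes tested were lower. All 3 genes of the NRF2 and redox list that were present, of 50, were lower in siSRC4 than in PD30 (median -1.74). These were HMOX1, SLC7A11 and AKR1C1, an aldo-keto reductase with near-identical relatives, which had 13.2 ± 1.70 with siSRC4 and 99.0 ± 9.76 in PD30, against 34.2 ± 3.79 in the control. HMOX1 stood above the control in siSRC4 cells and the other 2 below it, and for these 2 the order against PD30 follows from their class.

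The promoter of ASNS is shown because an element for C/EBP and ATF factors (TGATGNAA) is known to act in the amino acid response. It lies at chr7:97872409-97872658 on the minus strand of GRCh38.p14 (RefSeq), with the match in capitals at -68.
ASNS: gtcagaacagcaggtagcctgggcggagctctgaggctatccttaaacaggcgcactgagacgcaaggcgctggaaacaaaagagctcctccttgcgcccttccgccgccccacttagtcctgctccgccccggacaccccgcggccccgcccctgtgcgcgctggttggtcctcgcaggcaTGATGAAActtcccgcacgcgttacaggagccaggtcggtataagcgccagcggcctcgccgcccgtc
On either strand these letters occur in 3.14% of all promoters of the table and in 9 of the 294 promoters matched here (3.06%). The antioxidant response element (TGACNNNGC) was in 31 of the 294 (10.5%), against 10.9% of all promoters.

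Signalling ligands showed the same order in several cases. HGF, hepatocyte growth factor, which fibroblasts secrete to act on epithelial cells, had 31.2, 28.2 and 33.4 in siSRC4 libraries and 165, 164 and 157 in PD30 libraries, against 60.7, 65.1 and 62.8 in control libraries. The groups were far apart, and the gap was widened by 74.0% ± 8.91. BMP4, a bone morphogenetic protein, had 6.42, 6.02 and 6.97 with siSRC4 and 35.4, 34.9 and 32.6 in PD30, against 8.38, 11.15 and 10.6 in the control. SMAD9, which relays BMP signals, had 1.20 ± 0.215 with siSRC4 and 3.52 ± 0.148 in PD30, against 2.08 ± 0.402 in the control. ACVRL1, a receptor of the TGF-beta family, was lower than the control in both groups and did not pass the direct test (15.1 ± 1.59 with siSRC4 and 11.95 ± 2.20 in PD30, against 21.0 ± 3.44 in the control, limma adjusted p = 0.0752). It passed without siSRC4 library 1 (adjusted p = 0.0444) or PD30 library 1 (adjusted p = 0.0266). TSLP, a cytokine of epithelial and stromal cells, had 1.85 ± 0.483 with siSRC4 and 10.9 ± 0.248 in PD30, against 5.41 ± 1.27 in the control. Of the 49 secreted cytokines and chemokines on the list, 7 were present and 6 tested, 2 higher and 4 lower in siSRC4 than in PD30. For all those tested but CXCL12 the order follows from their class, and of all genes tested 35.0% were higher and 25.4% lower.

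Adhesion, matrix and nuclear envelope genes were also in this class. PCDH18, a protocadherin, had 28.7, 22.1 and 22.8 in siSRC4 libraries and 109, 113 and 110.2 in PD30 libraries, against 50.8, 43.7 and 46.9 in control libraries. POSTN, periostin, had 2.41 ± 0.765 with siSRC4 and 11.1 ± 1.34 in PD30, against 5.46 ± 1.24 in the control, and CCN3, a matricellular protein, had 1.98 ± 0.399 with siSRC4 and 9.44 ± 0.407 in PD30, against 4.96 ± 1.66 in the control. LBR, the lamin B receptor of the inner nuclear membrane, whose loss is known from senescent cells, had 2.37, 3.11 and 2.89 in siSRC4 libraries and 9.75, 13.2 and 12.1 in PD30 libraries, against 7.36, 6.84 and 7.50 in control libraries. Its gap was widened by 179% ± 23.7. TRPA1, a cation channel for irritants, had 7.07 ± 1.24 with siSRC4 and 29.5 ± 2.59 in PD30, against 17.7 ± 3.10 in the control, and ADAMTS8, a secreted protease, had 11.9 ± 2.76 with siSRC4 and 38.3 ± 2.70 in PD30, against 23.8 ± 3.34 in the control.

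Several lists had no gene among the 412, namely those for cholesterol and fatty acid synthesis, SRC family kinases and adhesion signalling, the insulin-like growth factor axis, hypoxia and glycolysis, ageing regulators, mitochondrially encoded genes, and fibroblast, endothelial and immune markers. In all 40 lists 90 of the 412 genes were found, and 322 belonged to none. The signals and the authors' fold changes differed in sign for 3 genes. DMD, dystrophin, had 5.23, 38.5 and 4.32 in siSRC4 libraries and 2.83, 2.53 and 2.87 in PD30 libraries, against 8.46, 7.13 and 6.83 in control libraries, while the authors' deposited table gives a log2 fold change of -0.91 for siSRC4. Library 2 alone placed the siSRC4 mean above the control. MIGA1 (7.12 ± 2.03 with siSRC4 and 3.97 ± 0.369 in PD30, against 6.83 ± 0.438 in the control) and ARMCX4 (1.03 ± 0.457 with siSRC4 and 1.68 ± 0.566 in PD30, against 1.07 ± 0.501 in the control) are the others, and DMD and MIGA1 are counted among the 71 genes short of PD30.

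The direction with siSRC4 went with base composition. Median GC content of the longest annotated transcript (GENCODE v29, 411 of 412 genes) was 56.6% for genes higher in both groups and 53.9% for genes higher with siSRC4 and lower in PD30. It was 41.2% for genes lower in both and 42.2% for genes lower with siSRC4 and higher in PD30, against 47.6% over all genes of the 4 tables. In the whole siSRC4 table the median was 55.4% for higher and 41.0% for lower genes, and in the PD30 table it was 49.5% and 47.9%. Within the siSRC4 group, the 220 tested genes with a GC content under 50% deviated from their group mean by a median of 0.12, -0.01 and -0.11 (log2) in libraries 1, 2 and 3, against 0.00, 0.04 and -0.03 for the 153 genes at 50% or more. In control libraries the same genes under 50% deviated by 0.08, -0.01 and -0.07, and those at 50% or more by 0.05, -0.01 and -0.05. The part of GC content in these results was not tested.

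**Figure D5:**
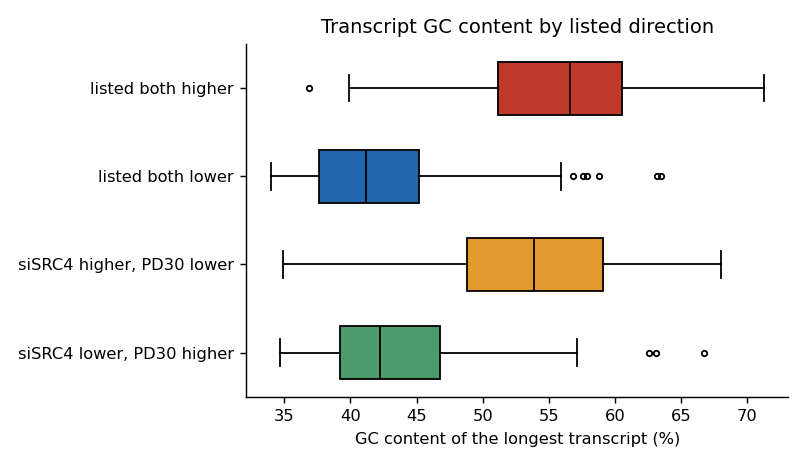
GC content (percent) of the longest transcript by direction class. Both classes higher with siSRC4 (medians 56.6 and 53.9) lie above both classes lower with siSRC4 (41.2 and 42.2), whichever side PD30 was on.

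The other treatments of PD45 cells were listed for some of the genes. For 57 genes the siSRC2 table gives values, and the median log2 difference of siSRC4 minus siSRC2 was 0.00 (-2.33 to 2.04). The range was -0.40 to 0.78 over 22 genes higher in both groups and -2.33 to 0.61 over 19 genes lower in both. Over 11 genes higher with siSRC4 and lower in PD30 the median was 0.31 (-0.52 to 2.04). The median over all 57 genes pools differences of either sign and cannot show agreement. Of these, 5 were lower with siSRC4 and higher in PD30, and 4 of the 5 stood apart: PCDH18 (24.6 ± 3.64 with siSRC4, 83.2 ± 3.70 with siSRC2), TRPA1 (7.07 ± 1.24 with siSRC4, 28.5 ± 6.41 with siSRC2), HSD17B2, a steroid dehydrogenase (7.68 with siSRC4, 26.4 with siSRC2), and PDGFD, a platelet-derived growth factor (0.627 ± 0.186 with siSRC4, 2.32 ± 0.494 with siSRC2). With siSRC2 these 4 lay on the PD30 side of the control, and CKS2, a CDK subunit, lay with siSRC4 (35.3 ± 1.81 with siSRC4 and 37.5 ± 4.18 with siSRC2, against 55.6 ± 4.85 in the control). For GW8510, a kinase inhibitor, 139 genes had values. The median log2 difference of siSRC4 minus GW8510 was 0.18 over all of them, and 1.44 over the 30 that were higher with siSRC4 and lower in PD30. These differences share the control through the choice of genes, and no test was made of them.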

How the data were processed

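Of the 4 deposited tables, those of siSRC4 and of PD30 over the PD45 control were used throughout. Per the file headers, they hold the authors' normalized signal per library, log2 fold change, ratio, p-value and adjusted p-value. Per the submitters' processing notes, HISAT2, StringTie, RSEM, CASAVA, edgeR and DESeq2 were used, with roles not given in the sources used here. The build in those notes is GRCm38, of the mouse, while the identifiers are human Ensembl ones, so no coordinates come from the tables. One table has a mean column titled siSRC2 and library columns named siSRC4; the library names were followed. Control values were identical in both tables.

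Group means, SDs and shares of the gap were computed with Python 3.11.15 and pandas 2.3.3; the SD of a share is over the 3 siSRC4 libraries with the other means held fixed. The siSRC4 and PD30 libraries were compared with limma 3.58.1 (R 4.3.3, mean-variance trend, 6 libraries, pseudocount 1), tested on simulated data. That scale understates changes of low signals. Genes with values in both groups are the members, so adjustment is over these, and genes outside a table are not analysed here. Named genes are the 4 with the largest authors' fold change in each direction class, the largest and smallest differences from PD30, and up to 4 of highest signal per list, at a mean signal of at least 5 outside the lists; others were named after their values were seen. Some genes that meet this rule are not reported here. The members and lists were chosen with earlier results of these data known. Alternatives were other pseudocounts, filters, spreads, scalings, a replicate block and each library left out.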

Additional observations from a re-analysis of the deposited data

How the results depend on the processing

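With a mean signal of at least 5 required, fewer genes were tested and 144 differed between siSRC4 and PD30 cells, 81 higher and 63 lower. Of the genes on the same side of the control 51 then differed, 47 short of PD30 and 4 beyond it, all 51 among the 79 of the report. Leaving out each library in turn gave 215 to 236 genes in all, 123 to 140 higher, 89 to 105 lower, 68 to 89 on the same side, 61 to 77 short of PD30 and 5 to 18 beyond it, and a median share of 80.4% to 87.2%. The number beyond PD30 was thus 18 without siSRC4 library 1 and 5 without PD30 library 2 or 3. Under a pseudocount of 0.1, no filter, no trend, a spread shared over 9 libraries and the authors' scaling, the counts stayed within 1.5 times. The median share was 85.3% to 88.8% with another pseudocount, the linear scale, no filter or the authors' fold changes. Labels pair no libraries, and deviations of same-numbered siSRC4 and PD30 libraries correlated at -0.12, 0.05 and 0.05; with the replicate number as a block 223 genes differed, 76 on the same side, 74 of them shared with the 79. For single named genes 971 values kept their side of the threshold, 17 newly passed and 9 no longer passed. The 971 include values of genes with opposite directions, whose calls follow from their choice. All 17 and 9 changes fell on genes on the same side of the control. No value changed direction where either fit passed, which for genes with opposite directions also follows from their choice. Changes of sign where neither passed were not counted. Depth is unknown, so no counting error can be given.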
